A study of Homo sapiens with 22 samples.

Results

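Assay for transposase-accessible chromatin by sequencing (ATAC-seq) was compared between EGFR/NGFR-High cells and Mix cells of WM989, a BRAF V600E melanoma cell line, with 3 libraries on each side. These 6 libraries were taken by their labels from 12 chromatin samples and 22 samples of the series in all. EGFR/NGFR-High cells had been sorted by flow cytometry for high surface EGFR and NGFR, and against them stand the libraries labelled Mix. The study's methods list, beside the 3 sorts for high markers, a population negative for both markers, but they also use the word mixed for all live cells in other experiments, and the labels do not settle which of these Mix is. The labels name no drug, allele or agent for either population. The other sorts, EGFR-High and NGFR-High with 3 libraries each, served to define the set of regions and to show where the peaks of the EGFR/NGFR-High cells were found again. The study worked with a clone of the line grown from a single cell, so the comparison concerns 1 genetic background. In such bulk libraries, fewer cells with an open site and less opening per cell cannot be told apart. The labels do not say whether the 3 libraries of a sort came from separate cultures, and the p-values then measure only the spread between these libraries.

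In ATAC-seq a transposase cuts DNA that is not wrapped tightly into nucleosomes, so that a peak marks an accessible promoter, enhancer or insulator. Melanocytes and most melanoma cells keep such sites open with SOX10 and MITF, the factors that drive the pigment programme. Cells of melanoma lines that lose this programme express receptors such as EGFR, NGFR and AXL, and AP-1 factors of the FOS and JUN families together with TEAD factors bind many of their enhancers. These EGFR-positive and NGFR-positive cells are known as primed cells, because they survive inhibition of the BRAF and MEK kinases more often.

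Short words of DNA from accessible sites that separated the sorts are printed here. AP-1 words were sought only in regions present or stronger in EGFR/NGFR-High cells, and SOX or MITF words only in the others. The sets thus differ by choice. Among named regions, those near C1QTNF3, CD36 and EIF3H were stronger and held SOX and MITF words. The gained region near RIN3 held an MITF word, and the weaker region near SOGA1 an AP-1 word. Marker genes gave further cases. A stronger region in an EGFR intron (chr7:55132614-55133560) held an MITF word and no AP-1 word. SOX words stood in the stronger AXL region printed below and in a stronger region 28.9 kb upstream of MITF. The sequences below are shown because they hold the AP-1 word or the SOX or MITF word in regions nearest to genes named in the results. They are from the forward strand of hg38, with 40 bases on each side of the word. The first set comes from regions that were present or stronger in EGFR/NGFR-High cells, and the capitals mark the AP-1 word TGACTCA or its reverse complement TGAGTCA at the copy nearest to the peak summit. Its EGFR and NGFR regions were weak, with mean signals of 6.20 and 7.81 in EGFR/NGFR-High libraries. The EGFR one had no peak in any EGFR-High or NGFR-High library. At the EGFR and NGFR starts, which were stronger too, no AP-1 word lay within 100 bp of the summit.
LPIN1 gained (chr2:12060056-12060142): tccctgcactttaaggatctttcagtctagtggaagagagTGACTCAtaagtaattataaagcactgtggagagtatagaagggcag
DNAJC6 gained (chr1:65261032-65261118): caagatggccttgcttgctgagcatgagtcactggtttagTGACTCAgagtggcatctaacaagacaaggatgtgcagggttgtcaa
UMODL1 gained (chr21:42040531-42040617): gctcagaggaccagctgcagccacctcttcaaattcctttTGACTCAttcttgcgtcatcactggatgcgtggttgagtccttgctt
EGFR gained (chr7:54985476-54985562): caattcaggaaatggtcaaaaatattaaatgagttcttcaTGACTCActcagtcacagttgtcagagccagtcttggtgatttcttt
NGFR gained (chr17:49482558-49482644): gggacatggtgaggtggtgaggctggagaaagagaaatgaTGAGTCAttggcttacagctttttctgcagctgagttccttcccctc
ITGA3 gained (chr17:50047674-50047760): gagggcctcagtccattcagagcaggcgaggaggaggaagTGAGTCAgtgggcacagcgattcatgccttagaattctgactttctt
NT5E higher (chr6:85361492-85361578): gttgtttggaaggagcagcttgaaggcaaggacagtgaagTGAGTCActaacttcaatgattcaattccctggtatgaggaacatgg
B4GALNT2 higher (chr17:49147177-49147263): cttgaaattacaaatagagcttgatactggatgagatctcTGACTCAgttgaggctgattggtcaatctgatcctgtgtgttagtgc
AXL higher (chr19:41225862-41225948): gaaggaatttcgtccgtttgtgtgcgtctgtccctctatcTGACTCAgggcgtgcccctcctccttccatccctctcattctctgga

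The second set comes from regions that were absent or weaker in EGFR/NGFR-High cells. Its LRP6 peak was nevertheless called in every library sorted for 1 marker, EGFR-High and NGFR-High alike. The capitals mark a SOX word, ACAAAG or ACAATG or their reverse complements CTTTGT and CATTGT, or in VRK1 the MITF word TCATGTG.
LRP6 lost (chr12:12214356-12214441): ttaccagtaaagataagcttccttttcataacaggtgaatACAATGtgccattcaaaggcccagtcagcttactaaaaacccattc
VSIG4 lost (chrX:66035830-66035915): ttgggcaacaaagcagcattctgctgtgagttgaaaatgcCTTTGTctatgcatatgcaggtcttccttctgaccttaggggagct
VRK1 lost (chr14:97021188-97021274): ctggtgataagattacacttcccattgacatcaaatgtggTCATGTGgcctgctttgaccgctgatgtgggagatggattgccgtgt
RASAL2 lower (chr1:178398928-178399013): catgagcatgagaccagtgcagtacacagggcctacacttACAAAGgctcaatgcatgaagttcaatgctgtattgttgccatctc

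Peaks of the 12 lists were merged into 151844 consensus regions, each with a peak in at least 3 of the 12 lists. A region was called gained where all 3 EGFR/NGFR-High libraries and no Mix library had a peak, and lost in the reverse case. EGFR/NGFR-High cells gained 7290 regions, which were 4.80% of all consensus regions, and lost 1285, which were 0.846%. Both sorts shared 86435 regions with a peak in all 6 libraries, so the larger part of the accessible genome was common to them. Regions on the edge of the definition were numerous, since 7214 had a peak in 2 EGFR/NGFR-High libraries and no Mix library, and 4566 in all 3 EGFR/NGFR-High libraries and 1 Mix library. The mirror classes held 2415 and 2480 regions.

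The lists of the 2 sorts were not equally long. They held 162297 to 180754 distinct intervals in EGFR/NGFR-High libraries and 148429 to 165476 in Mix libraries. Signal is the fold enrichment over background that the peak caller wrote, and no list gives read totals. All signal values of a library were whole multiples of 1 step. The inverse of this step, in pileup units, was 3.36 in EGFR/NGFR-High replicate 1 against 2.02 to 2.23 in the other 5 libraries. It may hold a constant that the peak caller adds to the background, so it does not give the ratio of depths. With the lists cut to the 100000 intervals of lowest q-value, the count of gained regions was 4234 and that of lost regions 1643. Gained regions thus outnumbered lost ones at equal list length too, by a smaller margin, and the part of depth in the unequal counts was not tested. Leaving out 1 library can only raise the counts over the full lists, since fewer libraries then have to hold or lack a peak. The size of the rise differed by library. Without EGFR/NGFR-High replicate 3, 11524 regions were gained, and without EGFR/NGFR-High replicate 1, Mix replicate 1 or Mix replicate 3, the lost regions numbered 2569, 2373 and 2055.

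Libraries of the same sort shared more of their accessible bases than libraries of different sorts. The Jaccard index, the bases covered in both lists over the bases covered in either, averaged 0.709 within EGFR/NGFR-High, with pairs from 0.694 to 0.728, and 0.720 within Mix, with pairs from 0.713 to 0.726. Between the sorts it averaged 0.667, and all 9 pairs lay between 0.653 and 0.681, below every pair within a sort. The difference of 0.0473 had p = 0.1 in a one-sided exact permutation test of the 6 libraries, which is the smallest p that this design allows.

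Gained regions were mostly far from promoters. A summit lay within 1 kb of an annotated transcript start in 7.48% of gained and 7.78% of lost regions, against 17.6% of all consensus regions. Introns held 54.6% of gained regions and 57.0% of lost regions, and 34.5% and 31.6% lay between genes. The median distance to the nearest start of a coding gene was 28238.5 bp for gained regions, 24744 bp for lost regions and 16551 bp for all. Both classes were weak peaks beside the shared ones. The median signal of the libraries that held the peak was 5.88 in gained and 5.11 in lost regions, and 14.7 in shared regions. A mean signal of 10 or more was reached by 658 gained regions but by 1 lost region.

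The strongest gained regions lay near genes of different kinds. The highest was in an intron of MYEOV itself, 26.6 kb from the nearest start (chr11:69320974-69322594). Its signal was 47.9, 24.1 and 27.3 in the 3 EGFR/NGFR-High libraries, and no Mix library had a peak there. LPIN1 encodes lipin-1, a phosphatidate phosphatase of lipid synthesis, and the gained region 237 kb from its start (chr2:12059564-12060579) reached 34.8, 32.6 and 23.3. The region 151 kb from ZFP36L2, which encodes an RNA-binding protein that destabilizes AU-rich transcripts (chr2:43074746-43076255), reached 39.0, 28.4 and 21.8. In all 10 regions of highest mean the 3 libraries had values of 17.4 or more, and in the examples given EGFR/NGFR-High replicate 1 had the highest value. The other 7 were nearest to C20orf85, FOXL1, COPS8, DNAJC6, BMP2, RIN3 and UMODL1. DNAJC6 encodes auxilin, which uncoats clathrin vesicles, BMP2 a secreted ligand of the TGF-beta superfamily, and FOXL1 a forkhead factor. The AP-1 word stood in 5 of these 10 regions, those of LPIN1, COPS8, DNAJC6, BMP2 and UMODL1, beside 37.3% of all gained and 13.6% of all consensus regions.

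The strongest lost regions were smaller. The highest was in an intron of LRP6, which encodes a co-receptor for WNT ligands (chr12:12214242-12214545), with 9.86, 8.01 and 12.6 in the 3 Mix libraries. The next was nearest to VPS35L, part of the retriever complex of endosomal recycling, with a mean of 9.44. After it came a region nearest to VRK1, a nuclear serine/threonine kinase, with a mean of 9.07. Libraries sorted for 1 marker also held the LRP6 peak, at 9.39, 8.51 and 6.36 in EGFR-High and 4.77, 4.37 and 7.05 in NGFR-High cells. The VPS35L peak was likewise called in each of those libraries, at 3.41 to 7.87. Such recovery was rare, since only 7 of the 1285 lost regions (0.545%) showed it. TLE1, a transcriptional co-repressor, LRRN3, KCNJ6, VSIG4, GRK7, OR4K15 and GPC5 were the genes nearest to the other 7. A SOX word, ACAAAG or ACAATG, stood in 5 of the 10 lost regions, and the AP-1 word in none of them. Over all consensus regions ACAAAG stood in 21.3%, ACAATG in 14.3% and the AP-1 word in 13.6%. Over all lost regions the shares were 29.3%, 16.03% and 6.30%.

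A peak that appears or disappears depends on a threshold, so the signal was also compared in the 86435 shared regions. Here limma found 7264 regions with higher signal in EGFR/NGFR-High cells (8.40%) and 6237 with lower signal (7.22%) at a Benjamini-Hochberg adjusted p under 0.05, on log2 signal centred on the median of each library. The higher regions had a median log2 difference of 0.83, and 2352 of them passed 2-fold. The lower regions had a median of -0.75, and 940 passed 2-fold. The changes reached further upward, to a log2 difference of 2.86, than downward, to -1.82, as the plot of signal differences shows. The 2 groups of 3 libraries did not overlap in 6758 of the higher and 5331 of the lower regions, and they did not overlap in 26.3% of all shared regions. Without EGFR/NGFR-High replicate 1 the counts were 4397 higher and 4086 lower, and without replicate 1 of both sorts 3359 and 2541. Without centring 7019 were higher and 4068 lower. With the mean in place of the highest signal of a region, 1994 were higher and 1042 lower, so the share of higher calls was 65.7% in place of 53.8%. Falls outnumbered rises with a mean signal of at least 5 (6770 higher, 7084 lower) and with a −log10 q of at least 5 in the lists (5640 higher, 5900 lower).

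**Figure D1:**
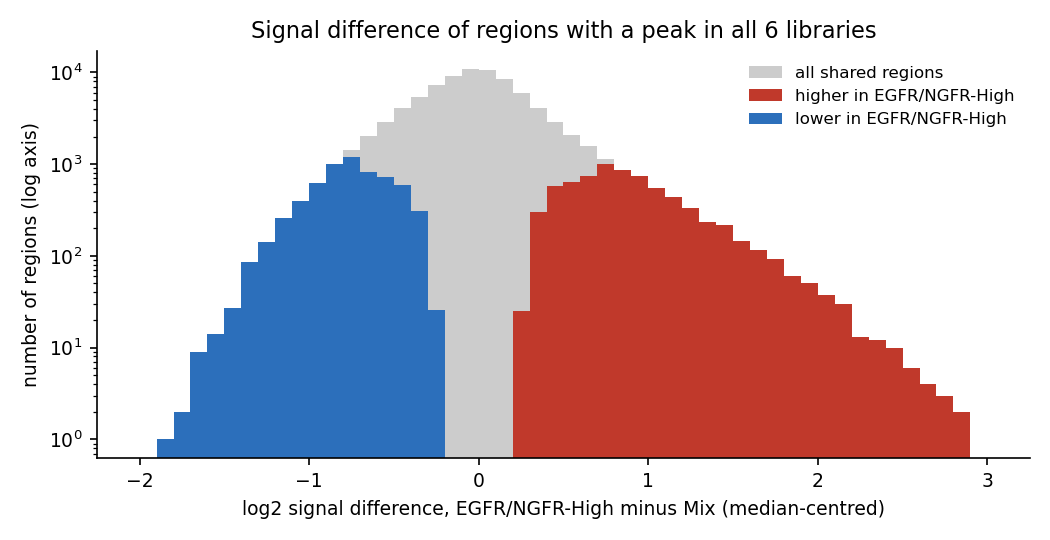
Histogram of the log2 signal difference, EGFR/NGFR-High minus Mix, over the 86435 regions with a peak in all 6 libraries, in bins of 0.1, with the number of regions on a log axis. Gray bars are all shared regions, red bars the 7264 with higher and blue bars the 6237 with lower signal by limma at an adjusted p under 0.05. The red side extends to 2.86 and the blue side to -1.82.

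The largest rises were at sites with a weak peak in every Mix library. An intron of B4GALNT2, a glycosyltransferase that makes the Sda antigen, had 60.4, 35.0 and 32.3 in EGFR/NGFR-High and 4.93, 5.18 and 6.29 in Mix libraries (log2 difference 2.86 ± 0.215 SE, limma adjusted p = 9.17e-16). The region 49.6 kb from CD36, the scavenger receptor that takes up fatty acids, had 59.5, 46.3 and 41.2 against 7.17, 8.95 and 4.84. In an intergenic region 88.1 kb upstream of NT5E (chr6:85360920-85362020), the values were 41.7, 29.3 and 25.3 against 5.38, 4.71 and 4.84 (log2 difference 2.61 ± 0.227 SE, limma adjusted p = 1.64e-13). NT5E encodes CD73, an ecto-enzyme that makes adenosine and a known surface marker of primed cells. In each of these the lowest EGFR/NGFR-High library was at least 3 times the highest Mix library. The other 7 of the 10 largest rises were nearest to C1QTNF3, KIRREL3, ATXN1, EIF3H, CLXN, PHF20 and GSDMC, with log2 differences from 2.59 to 2.83.

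The largest falls were smaller in size. An intron of RASAL2, which encodes a GTPase-activating protein for RAS, had 8.63, 4.73 and 8.44 in EGFR/NGFR-High against 24.2, 25.9 and 21.8 in Mix libraries (log2 difference -1.82 ± 0.231 SE, limma adjusted p = 1.77e-08). An intron of PGM5, a phosphoglucomutase-like protein of adherens junctions, had 4.46, 5.20 and 6.95 against 18.4, 12.7 and 21.3. The other 8 were nearest to SOGA1, LUZP2, ELSPBP1, PI4KA, RHBG, ZDHHC11B, RAB27B and GTF2F2, with log2 differences from -1.62 to -1.74. RAB27B, a RAB protein of vesicle secretion, stood apart from its region, as its RNA level was 89.3 CPM (UMI counts scaled to a common total) in primed and 2.78 in drug-susceptible cells of the single-cell experiment described below.

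The genes of the sort markers were more accessible in the cells sorted for them. At the EGFR start (chr7:55018530-55019753) the signal was 14.0, 11.3 and 7.94 in EGFR/NGFR-High and 5.38, 4.24 and 5.81 in Mix libraries (log2 difference 1.04 ± 0.262 SE, limma adjusted p = 0.00298). An EGFR intron (chr7:55132614-55133560) had 23.2, 17.01 and 20.3 against 4.03, 4.24 and 5.32 (log2 difference 2.11 ± 0.248 SE, limma adjusted p = 2.3e-09). Of the 36 consensus regions nearest to EGFR, 5 were gained and 5 of 15 shared ones rose, beside 4.80% gained of all consensus regions and 8.40% higher of all shared ones. None was lost or fell, at shares of 0.846% and 7.22% over all. At the NGFR start (chr17:49494504-49495998) the values were 18.2, 14.2 and 13.9 against 5.82, 7.54 and 9.68 (log2 difference 0.98 ± 0.244 SE, limma adjusted p = 0.00258). NGFR, the low-affinity receptor of neurotrophins, had 2 gained regions of 11, and 3 of its 4 shared regions rose, of which the one 18152 bp from the nearest start (chr17:49514804-49516533) turned from a log2 difference of 0.41 to -0.50 with the mean in place of the highest signal. At the EGFR intron and at both starts the groups did not overlap. The EGFR start lost its call without replicate 1 or 2 of both sorts, and the NGFR start without replicate 1 of both.

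**Figure D2:**
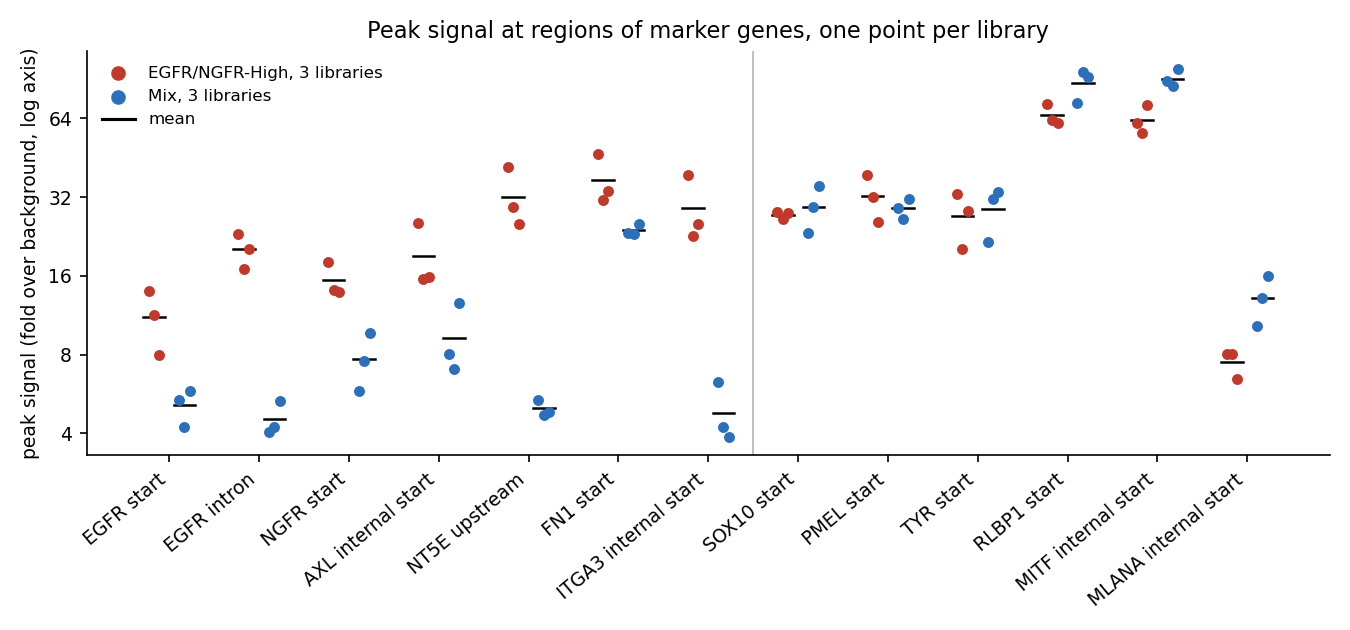
Peak signal (fold over background, log axis) of each library at 13 regions of marker genes, with 3 EGFR/NGFR-High libraries in red, 3 Mix libraries in blue and the mean as a bar. Left of the line, the regions of EGFR, NGFR, AXL, NT5E, FN1 and ITGA3 are higher in every red than in any blue library. Right of it, the starts of SOX10, PMEL and TYR overlap between the sorts, and the regions of RLBP1, MITF and MLANA are lower in red by their means.

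The list of 20 genes that mark primed cells, EGFR and NGFR included, had 403 consensus regions, of which 12.2% were gained and 0.496% lost, and 47 of its 200 shared regions rose (23.5%) while 10 fell. Over all regions 4.80% were gained and 0.846% lost, and 8.40% of shared regions were higher and 7.22% lower. Of the 14 starts that could be tested 7 rose, among them those of EGFR, NGFR, FN1, SERPINE2, PDGFRB and LOXL2, and none fell. The other 6 genes, AXL, WNT5A, TGFBI, CCN1, IL1B and ALOX5AP, had no peak at their main start in any of the 6 libraries. Among all 19274 shared regions at promoters 4.24% were higher and 3.37% lower. An internal start of AXL, a receptor tyrosine kinase for GAS6, lay 902 bp from a region with 25.6, 15.6 and 15.9 against 8.06, 7.07 and 12.6 (log2 difference 1.001 ± 0.233 SE, limma adjusted p = 0.0012). The groups did not overlap there. WNT5A, a WNT ligand of the non-canonical pathway, had 6 gained regions of 13, with means from 5.68 to 16.5, while 1 of its 5 shared regions rose and 1 fell. The NT5E start, with means of 38.3 and 36.6, was not called (limma adjusted p = 0.898), although its distal region had the large rise above. The start of JUN, a core AP-1 subunit, was not called either, with means of 96.4 and 94.1, whereas 4 of the 14 shared JUN regions rose and none fell.

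Genes of the matrix and of cell adhesion had the largest share of shared regions with higher signal among the 10 lists of pathways and factors. Of the 266 consensus regions of these genes 13.5% were gained, beside 4.80% of all. Of 134 shared regions 33.6% rose and 1.49% fell, beside 8.40% and 7.22% of all shared regions. The median log2 difference was 0.30, against -0.02 over all shared regions. ITGA3 encodes the alpha chain of a laminin-binding integrin, and 6 of its 8 shared regions rose. At an internal ITGA3 start (chr17:50062020-50063209) the signal was 39.0, 22.7 and 25.3 against 6.27, 4.24 and 3.87 (log2 difference 2.54 ± 0.24 SE, limma adjusted p = 3.04e-12), a region without overlap between the sorts. FN1 encodes fibronectin, and its start had 46.7, 31.2 and 33.7 against 23.3, 23.1 and 25.2 (log2 difference 0.57 ± 0.152 SE, limma adjusted p = 0.00484). A distal region 263 kb from FN1 rose more, from a mean of 6.39 to 25.4. Of the 17 shared FN1 regions 6 rose and 1 fell. COL1A1, the main collagen of connective tissue, rose at its start by 0.43 on the log2 scale (limma adjusted p = 0.0104).

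The lists of signalling genes and factors are given beside the shares over all regions, 4.80% gained, 8.40% of shared regions higher and 7.22% lower, and no list was tested against another. In the TGF-beta pathway 24 of 244 regions were gained (9.84%), 22 of 128 shared regions rose (17.2%) and 5 fell (3.91%). The start of SMAD7, an inhibitory SMAD, rose by 0.40 (limma adjusted p = 0.0497), and that of SMAD3, a signal transducer of the pathway, fell by 0.42 on the log2 scale (limma adjusted p = 0.0354). SMAD3 nevertheless had 9 gained regions of 39. Among receptors and ligands 10.4% of 289 regions were gained and 27 of 136 shared regions rose (19.9%) while 5 fell. Regions of AP-1 factor genes rose in 14 of 59 cases (23.7%) and fell in none, and the start of FOSL2 rose by 0.33 on the log2 scale (limma adjusted p = 0.0134). The list of TEAD factors and YAP targets had 9.19% gained regions and 13.9% of shared regions higher with 6.93% lower, and the cytokine list 4 gained regions of 49 (8.16%). Neural crest and stem factors had 21 gained regions of 266 (7.89%), with 15 of 140 shared regions higher (10.7%) and 14 lower, and the ERK feedback list had 4.98% gained, 10 of 118 shared regions higher (8.47%) and 12 lower. Of its 221 regions 5 were lost (2.26%), beside 0.846% of all, and 4 of these 5 were nearest to SPRY2 and 1 to DUSP6.

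The starts of most pigment cell genes had a peak in both sorts. Of 17 melanocyte identity genes 15 had a start peak in all 6 libraries, and TFAP2B and TYRP1 had none. All 6 melanocyte markers (SOX10, MITF, PMEL, MLANA, TYR and DCT) had a peak at their start in all 6 libraries. None of these 6 starts was called, with log2 differences from -0.30 to 0.09. Calls were rare at starts in general, as 4.24% of all 19274 shared promoter regions were higher and 3.37% lower. The SOX10 start had 28.0, 26.5 and 27.8 in EGFR/NGFR-High and 23.3, 29.2 and 35.3 in Mix libraries (limma adjusted p = 0.696), and the groups overlapped. DCT, an enzyme of melanin synthesis, was lowest in the order with 53.3, 52.5 and 56.6 against 64.1, 64.1 and 64.9 (limma adjusted p = 0.0767), and it was called in 4 of the alternative settings. In the list of 17 melanocyte identity genes 3.50% of regions were gained, 32 of 230 shared regions rose (13.9%) and 17 fell (7.39%), beside 4.80% gained of all consensus regions and 8.40% higher and 7.22% lower of all shared ones. RLBP1, a retinaldehyde-binding protein, was the only gene of that list whose start fell, from 73.0, 96.1 and 92.0 in Mix to 72.6, 63.3 and 61.5 in EGFR/NGFR-High libraries (log2 difference -0.44 ± 0.111 SE, limma adjusted p = 0.00275). MITF itself was mixed. A region 345 bp from an internal MITF start fell from a mean of 90.9 to 63.2 (log2 difference -0.58, limma adjusted p = 0.000125), while a region 28.9 kb upstream of the gene rose from 10.7 to 39.4 (log2 difference 1.79, limma adjusted p = 5.04e-11). In all 7 of the 69 shared MITF regions rose, 7 fell and 4 were gained, and 2 of the 7 falls turned to log2 differences of 0.0695 and 0.28 with the mean signal. A region 490 bp from an internal start of MLANA, the melanoma antigen MART-1, fell from a mean of 13.2 to 7.51 (limma adjusted p = 0.0128), a call that was lost without EGFR/NGFR-High replicate 1 or Mix replicate 3.

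Markers of other cell types were read the same way, and regions near some of them were called at shares like those of the pathway lists. Of the 69 regions nearest to the 4 endothelial markers 8.70% were gained and 23.1% of 39 shared ones rose, of the 87 nearest to the 5 fibroblast markers 12.6% were gained and 9 of 45 shared ones rose, and of the 53 nearest to the 4 leukocyte markers 9.43% were gained and 10.3% of 29 shared ones rose. The 4 keratinocyte markers had 6 regions, none of them gained or higher. The shares over all were 4.80% gained and 8.40% higher. No start of the 4 keratinocyte, 4 endothelial or 4 leukocyte markers had a peak in all 6 libraries, and the start of CD14, a monocyte receptor, had one in 4. Of 5 fibroblast markers 4 had a start peak in all 6, and the starts of COL1A1 and PDGFRB rose while those of COL1A2 and LUM were not called. In the single-cell experiment described below, PECAM1, an endothelial adhesion molecule, had 22.8 CPM in primed and 0.183 in drug-susceptible cells, and 3 of its 13 regions were gained and 2 of its 4 shared ones rose. The endothelial markers CDH5 and TEK, the keratinocyte markers KRT5, KRT14, KRT1 and TP63 and the leukocyte markers PTPRC and CD3E were under 0.06 CPM in both states. Among the fibroblast markers COL1A1 had 160 and 1.69 CPM, PDGFRB 13.5 and 0.910, DCN 6.19 and 1.33, and COL1A2 1.97 and 0.356. Only LUM was lower in primed cells, with 16.9 and 32.2 CPM. Whether any of these moved with the other gene groups through cells of another type was not tested.

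AP-1 words were more frequent in regions that were gained or stronger in EGFR/NGFR-High cells, though most of these regions lacked them. The word TGACTCA, on either strand and within 100 bp of the summit, stood in 37.3% of gained and 6.30% of lost regions, against 13.6% of all consensus regions. Shared regions gave the same picture, with 37.9% of the higher and 6.54% of the lower regions. The share was higher where the difference was larger, from 7.40% of the regions with a log2 difference between -0.5 and 0 to 13.3% between 0 and 0.5, 32.1% between 0.5 and 1 and 48.8% above 1.5. With promoters left out the shares were 37.4% in gained and 6.41% in lost regions, beside 14.9% of all consensus regions outside promoters. The words sat at the summit. In the bins of 20 bp on each side of it, 7.65 and 8.08 AP-1 words were found per 100 gained regions, against 2.48 and 2.41 per 100 of all regions and 0.934 and 0.856 per 100 lost regions, whereas 190 bp upstream of the summit the 3 values were 0.370, 0.338 and 0.233. These shares describe regions that share libraries and base composition, and they were not tested over regions.

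**Figure D3:**
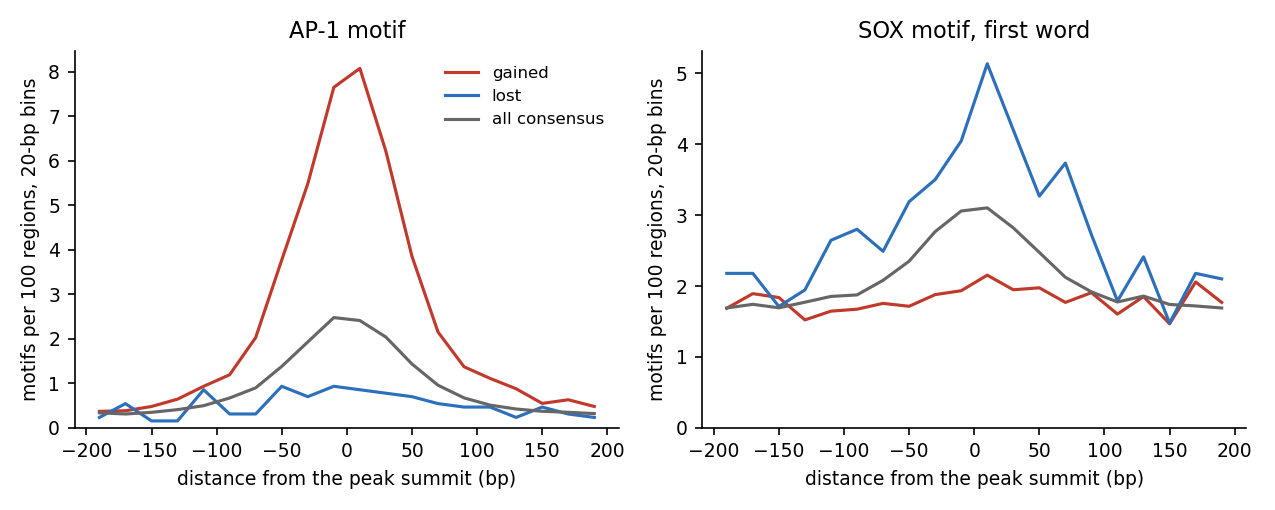
Motifs per 100 regions in 20-bp bins by distance from the peak summit (bp), for gained, lost and all consensus regions, with the AP-1 word on the left and the SOX word ACAAAG on the right. Gained regions peak at 8.08 AP-1 words per 100 regions beside the summit, and lost regions at 5.14 SOX words.

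The difference in AP-1 content could be seen in each library on its own. Among the 50000 intervals of lowest q-value of each library, 15.6%, 13.9% and 13.8% held the AP-1 word in EGFR/NGFR-High and 10.95%, 11.2% and 11.04% in Mix libraries. The groups did not overlap, and the difference of 3.37 percentage points had p = 0.1 in a two-sided exact permutation test, the smallest that 3 against 3 libraries allow (0.12 after adjustment over 6 motifs, of which 5 reached the same p). In the 10689 shared regions with the word, the median centred log2 signal was 0.30, 0.18 and 0.19 in EGFR/NGFR-High and -0.14, -0.10 and -0.15 in Mix libraries, also without overlap (difference 0.35, exact permutation p = 0.1). Of the 17 motifs tested in this way 9 reached this smallest p, and the adjusted p of those 9 was 0.189.

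TEAD and NFAT words followed AP-1, while SOX and MITF words were less frequent in gained and more frequent in lost regions. The TEAD word GGAATG stood in 21.1% of gained, 13.2% of lost and 15.6% of all regions, and the NFAT word TGGAAAA in 10.0%, 4.67% and 6.59%. The SOX word ACAAAG stood in 16.8% of gained, 29.3% of lost and 21.3% of all regions, and in 32.3% of shared regions with lower signal. The second SOX word, ACAATG, stood in 11.9% of gained and 16.03% of lost regions, and in 21.8% of the lower shared regions against 14.3% of all. The MITF words TCACGTG and TCATGTG stood in 4.68% of gained, 9.42% of lost and 6.53% of all regions, and in 10.5% of the lower shared regions. Higher shared regions were near all shared regions for these words. The shares were 20.9% against 22.1% for ACAAAG, 14.0% against 14.4% for ACAATG and 6.11% against 6.71% for MITF. Outside promoters ACAATG stood in 16.5% of lost regions and 15.6% of all. The CTCF word AGGGGGC, part of the insulator motif, was rare in both classes, with 2.03% of gained and 3.19% of lost regions against 6.18% of all. The RUNX word TGTGGTT was more frequent in both the higher (12.3%) and the lower shared regions (12.5%) than in all regions (8.61%).

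**Figure D4:**
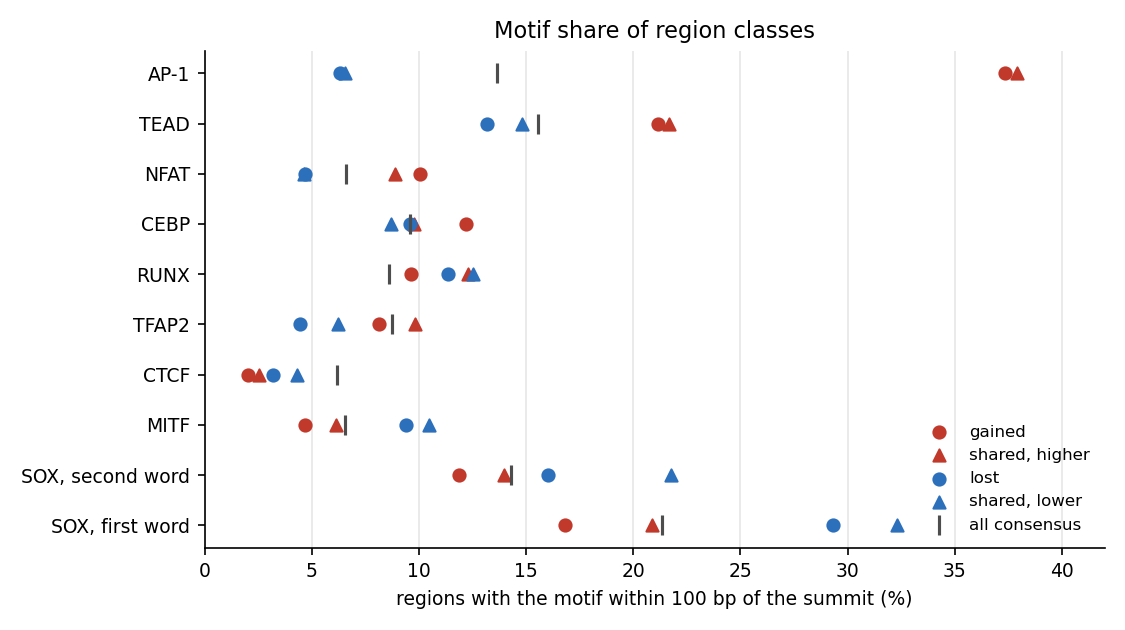
Share of regions (%) with a motif within 100 bp of the summit, for gained and lost regions (circles), shared regions with higher and lower signal (triangles) and all consensus regions (bars), with EGFR/NGFR-High in red and Mix in blue. The AP-1 row separates 37.3% from 6.30%, and the SOX rows run in the opposite order, the first word being ACAAAG and the second ACAATG.

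The regions gained in EGFR/NGFR-High cells were found again in part in cells sorted for 1 marker, at a larger share in each NGFR-High library than in any EGFR-High library. A peak was present in 83.5%, 62.5% and 71.1% of the 7290 gained regions in the NGFR-High libraries and in 47.3%, 47.2% and 39.2% in the EGFR-High libraries. All consensus regions had shares of 77.6% to 81.9% and 71.2% to 78.3% in these libraries. All 3 NGFR-High libraries had a peak in 49.4% of gained regions and all 3 EGFR-High libraries in 23.1%, while 4.53% had none in these 6 libraries. Of all consensus regions 66.9% had a peak in all 3 NGFR-High and 60.2% in all 3 EGFR-High libraries, and 1.60% had none. Lost regions had a peak in all 3 NGFR-High libraries in 3.81% and in all 3 EGFR-High libraries in 4.51%, and 22.9% had none in the 6. At the 7127 higher regions with a peak in all 12 libraries, the median centred log2 signal was 0.52, 0.37 and 0.32 in EGFR/NGFR-High, 0.44, 0.21 and 0.23 in NGFR-High, 0.21, 0.04 and 0.00 in EGFR-High and -0.57, -0.56 and -0.63 in Mix libraries. The signal of the 2 sorts compared had chosen these regions, and the single-marker sorts entered the choice by having a peak there, so the sorts were not tested against each other. The AP-1 share of the 50000 leading intervals was 12.8% to 13.8% in NGFR-High and 11.98% to 12.5% in EGFR-High libraries, between the values of the 2 sorts compared.

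Gene expression was read from the first single-cell experiment on untreated WM989 cells, a separate measurement. Its UMI counts, which count RNA molecules, were summed over the cells that the authors' labels call primed and over drug-susceptible cells, and scaled to a common total in each state (CPM). It is 1 pooled table, so no test was made, and 6316 genes reached 20 CPM in a state. Over 2-fold higher levels in primed cells were found for 10.4% of them, and levels under 0.5 times for 6.55%. EGFR had 48.1 CPM in primed and 3.37 in drug-susceptible cells, NGFR 30.1 and 1.098, NT5E 195 and 24.4, and FN1 3771 and 98.7. In the other direction SOX10 had 7.09 and 130, PMEL 66.8 and 2158, and MLANA 59.0 and 1683. The starts of these 3 pigment cell genes were not called between the sorts, and their transcripts were lower in primed cells. Of all 19274 shared promoter regions only 4.24% were higher and 3.37% lower. The start of RLBP1, with 1.07 and 51.1 CPM, fell by 0.44 on the log2 scale. In the study, primed and drug-susceptible states are expression clusters of cells grown on after sorting, so marker levels partly follow from how the states were drawn. ATAC-seq was done directly after sorting, so the 2 readouts do not compare the same cells.

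Genes near gained regions held a larger share with higher levels in primed cells than all genes did. Of 1451 genes nearest to a gained region with 20 CPM, 22.9% were over 2-fold higher in primed cells and 9.86% under 0.5 times. The share over 2-fold was 16.6% with 1 gained region, 31.4% with 2 to 4 and 39.8% with 5 or more. The share under 0.5 times was 8.44%, 11.2% and 17.05% in the same classes, so both shares were larger with more gained regions, beside 10.5% and 6.52% of all 6000 nearest genes. Genes with many regions have more chances to hold a gained one, so genes with at least 20 consensus regions were looked at alone. Of all 733 such genes 23.6% were over 2-fold higher, close to the 22.9% near gained regions, and 14.7% were under 0.5 times. Among them 34 of 85 genes with 5 or more gained regions and 20 of 167 genes with none were over 2-fold higher, and 15 and 19 were under 0.5 times. Of 376 genes nearest to lost regions, 12.5% were over 2-fold higher and 12.2% under 0.5 times, against the same 10.5% and 6.52% of all. The nearest start need not belong to the gene that a region acts on.

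**Figure D5:**
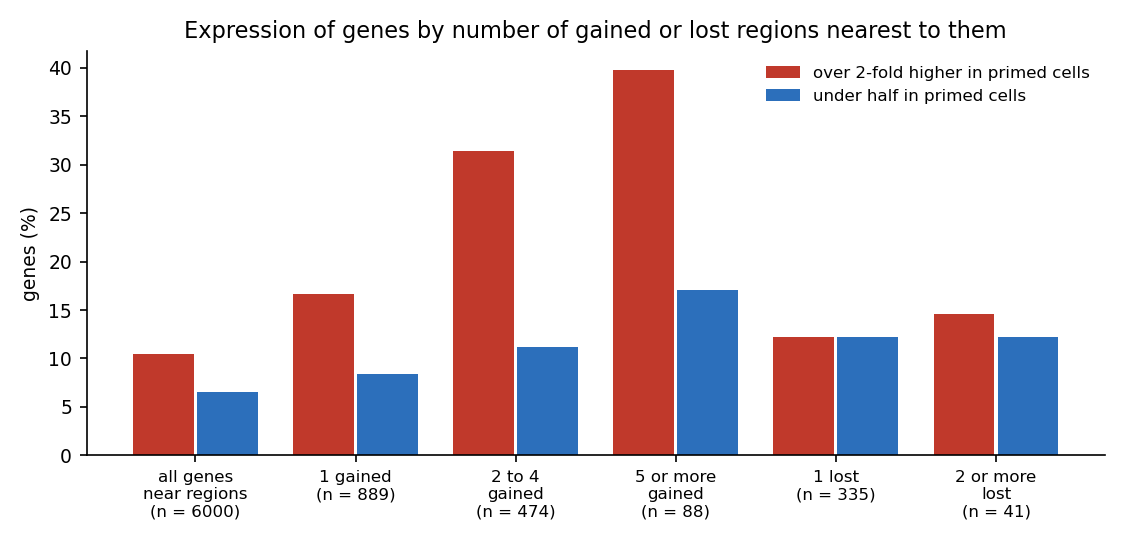
Share of genes (%) with at least 20 CPM that were over 2-fold higher (red) or under 0.5 times (blue) in primed against drug-susceptible cells, by the number of gained or lost regions nearest to their start, with the number of genes n below each pair of bars. The red bar is 10.5% for all genes and 39.8% for those with 5 or more gained regions, and the blue bar 6.52% and 17.05%.

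The genes with the most gained regions also had many regions in all. RUNX1, IGFBP7, KCNMA1 and NRG1 had 12 gained each, of 90, 57, 58 and 74 consensus regions, where 4.80% of all regions were gained. Of all shared regions 8.40% were higher and 7.22% lower, beside which the counts for single genes below stand. IGFBP7, a secreted binding protein for insulin-like growth factors, had 7 of 23 shared regions higher and none lower. Its level was 1534 CPM in primed and 22.4 in drug-susceptible cells. KCNMA1, a calcium-activated potassium channel, had 7 of 28 shared regions higher and none lower, and levels of 13.4 and 0.0251 CPM. NRG1, a ligand of ERBB3, had 1 of 36 shared regions higher and 4 lower, and levels of 27.0 and 0.729 CPM. RUNX1, a RUNX factor, had 10 of 48 shared regions higher and 3 lower, and levels of 26.7 and 24.2 CPM. CD44, the hyaluronan receptor, had 11 gained regions of 39 and levels of 831 and 142 CPM, and PDE4D, a cyclic AMP phosphodiesterase, had 11 of 107. SOX5, LSAMP, LRMDA and CAMTA1 had 10 each, of 86, 131, 78 and 72 regions. SOX5 and LSAMP had lower levels in primed cells, with 12.3 against 37.6 CPM and 6.19 against 28.0 CPM. Lost regions reached smaller numbers per gene. MDGA2, SPRY2 and DLG2 had 4 each, of 43, 78 and 48 regions, where 0.846% of all were lost. AUTS2, CDH6, CSMD1, FBXL7, POM121L12, CNTN3 and ALCAM had 3 each, of 33 to 126 regions. SPRY2, a feedback inhibitor of receptor tyrosine kinase signalling, had 4 gained regions as well, and AUTS2 had 9 gained regions, with 10 of 67 shared ones higher and 12 lower.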

How the data were processed

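ATAC-seq was measured in 12 libraries of sorted WM989 cells, and 6 of them entered the comparison, grouped by their labels. The authors aligned reads to hg38 with Bowtie2 2.3.4.1, filtered them with SAMtools 1.1, removed duplicates with Picard and called peaks in each library with MACS2 2.1.1.20160309, with no pooling of replicates (versions from the submitters' processing notes). The deposited lists give a fold enrichment, a ratio of pileup to background, and the −log10 of a q-value. Read totals are not in these values, so the depth per library is unknown and no interval of it is given. Only the step of the ratio could be read from the values. The single-cell table holds deposited UMI counts, which the authors made with Cell Ranger (version not given in the sources used here), beside their own state labels. Cells with high gene numbers, taken as likely doublets, were removed by the authors per their methods, and no doublet caller was run here.

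Lists hold an entry for each summit, and 61596 to 90166 repeated intervals per list were dropped. Chromosomes 1 to 22 and X were used. Intervals of the 12 lists that overlapped by at least 1 bp were merged, and the highest signal of a region was kept. Signal was tested as log2 values centred on the median of each library with limma 3.58.1 (eBayes with trend, two-sided, Benjamini-Hochberg over all shared regions, threshold 0.05) in R 4.3.3. On simulated data with 200 changed regions among 86435, limma recovered 25% of 2-fold and 84% of 4-fold changes with 0 false calls. In the data 15.6% of shared regions were called, far more than were changed in the simulation, and the simulated noise was independent between regions. These rates therefore do not give the power or error rate of the comparison. Motifs were searched on both strands in windows of 201 bp of hg38, also for ETS (CCGGAAG), TFAP2 (GCCNNNGGC), CEBP (TTGCNNAA), SMAD (GTCTAGAC and CAGACA), IRF, NFI, NF-kB and Sp1 (GGGCGG), and positions come from GENCODE 44. Of 17639 nearest genes 16887 matched the count table by symbol and 414 by a RefSeq synonym, and the CPM ratio had a pseudocount of 0.01. Other software was Python 3.11.15, numpy 2.4.6, pandas 2.3.3, scipy 1.17.1, pysam 0.24.0 and matplotlib 3.10.9. Whether the replicate numbers pair the libraries was not settled, and the model had no term for them.

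The gene lists, regions and motifs were chosen with earlier results of these data known. Named regions are the 10 gained and 10 lost of highest mean signal, the 10 largest rises and falls among called regions whose groups did not overlap, the 10 genes with the most gained and the most lost regions, and genes of the lists. The alternatives were other list lengths and thresholds, other overlaps, other scalings of the signal, a replicate block and leaving out each library. Other single-cell tables were not used here. Some items are not reported here.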

Additional observations from a re-analysis of the deposited data

How the results depend on the processing

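With lists cut to the 100000 intervals of lowest q-value 4234 regions were gained, and with 50000 intervals 2147, while 1643 and 1157 were lost (the cause was not tested). Leaving out 1 library, or 1 replicate number of both sorts, gave 7862 to 14277 gained and 1842 to 4655 lost regions, since fewer libraries had to hold or lack a peak. It gave 3359 to 6838 shared regions with higher and 2541 to 6225 with lower signal. Without centring 7019 were higher and 4068 lower (63.3% higher), and with the mean signal of a region's intervals 1994 and 1042, of which 2909 were also called as reported (the cause was not tested). With a peak in at least 3 of 6 libraries and missing values at the list's lowest value, 11597 were higher and 11734 lower, in a wider set of regions. Whether the replicate numbers pair the libraries was not settled. Correlations of same-numbered deviations were 0.053, 0.0091 and 0.1098, and those of different numbers ran from -0.084 to 0.0363. Replicates 1 and 3 of EGFR/NGFR-High correlated best with the same number, and replicate 2 with Mix replicate 1. A replicate block gave 7988 higher and 7215 lower. Within 2 kb of a start lay 13.1% of gained and 14.9% of lost regions, and with 100000 intervals 9.49% of lost regions lay within 1 kb. The AP-1 share of gained regions was 28.8% in a window of 50 bp on each side and 42.7% with 100000 intervals, and that of lost regions 3.58% in the smaller window. The median log2 CPM ratio of genes nearest to gained regions, 0.16 as reported, was 0.19 within 50 kb, 0.11 in the cells of r1 and 0.11 in those of r2, and that of genes nearest to lost regions was -0.0842 in r1. Over 110 named regions, 1731 combinations of region and setting kept direction and call, 301 lost the call, 5 gained one and 28 turned the sign. With the mean signal 41 regions kept both, 61 lost the call and 8 turned. Without centring the starts of JUN and ERBB3 had log2 differences of 0.0353 and 0.00657, and with missing values at the lowest the NT5E start had -0.0477. With the mean signal the values were -0.50 for NGFR at 49514804, 0.0695 and 0.28 for MITF at 69925285 and 70039692, -0.37 for TGFBI at 136019831, 0.0158 for JUN, 0.31 for SOX10, -0.44 for PMEL and 0.16 for ERBB3 (the cause was not tested). Leaving out libraries gave ranges of -0.14 to 0.32 at the NT5E start, -0.0957 to 0.0349 at JUN, -0.34 to 0.0712 at FOSL1, -0.289 to 0.0267 at SOX10, -0.431 to 0.0928 at TYR, -0.0295 to 0.25 at PMEL and -0.15 to 0.0593 at ERBB3, none of them called as reported. The difference of the Jaccard index kept its direction throughout, from 0.0425 to 0.0593 with libraries left out. The planned stricter overlap with a merged region could not change the classes by construction. Chosen after seeing the data were intervals that cover 0.5 of the region (8208 gained, 1724 lost), a signal of at least 4 in every list (6015 and 1497) and pileup over background (7218 higher, 6176 lower). Read depth is not given in the lists, so peaks absent from a library may lie under its threshold.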
